A study of Arabidopsis thaliana with 9 samples.

Results

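Cytochrome P450 genes, named CYP with a family number, a subfamily letter and a member number, were followed over wild-type Arabidopsis thaliana and plants in which MSH1 was suppressed by RNA interference (RNAi). The members were the probe sets whose single gene symbol in the array's annotation table has that form. This left out cyclophilins, probe sets shared between genes and symbols of another form, such as CYP71B30P and CYP718. Probe sets for which that table lists no gene were also left out. P450 genes without a probe set that fits the rule were not analysed, so the members are only a part of the family. These members came to 22 genes in 5 subfamilies, each with 1 of the 22746 probe sets tested. Of these, 18 belong to CYP71B, and CYP51G2, CYP78A9, CYP79A2 and CYP84A4 stand alone in theirs.

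The study took the above-ground parts of plants at 8 weeks of age and hybridised their RNA to Affymetrix 3' expression arrays, 9 in all. The groups were 3 wild-type arrays, 3 arrays of a variegated msh1 RNAi transgenic line and 3 arrays of a stunted msh1 RNAi transgenic line. All were biological replicates of the Col-0 background from a greenhouse with 12 hours of light and 12 hours of dark, and the labels give no other allele or agent. The promoter of the RNAi construct and the number of independent transformants in each line are not given in the sources used here, and MSH1 transcript itself was not analysed here.

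Cytochrome P450s are heme-containing monooxygenases, most of them anchored in the endoplasmic reticulum, that take electrons from NADPH through a reductase and insert an oxygen atom into a substrate. In plants they form one of the largest enzyme families and act in the synthesis or breakdown of hormones, sterols, lignin, pigments and defence compounds. CYP71B is a large subfamily of Arabidopsis whose genes often lie side by side in tandem arrays, and the substrates of most of its enzymes are not known. MSH1, a protein of the MutS mismatch repair family, enters mitochondria and plastids and limits recombination of their genomes.

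The values are deposited log2 expression levels. Array medians lay between 3.37 and 3.43, and the green leaf markers LHCB4.1, PSAE-1 and RCA averaged 12.27 to 12.53 on every array. The anther markers AMS and SPL, 2 of 19 listed, averaged 2.52 to 2.74, close to the lowest values on the arrays, which were 1.98 to 2.22. Of other array signals, the bioB spike-in of wild-type replicate 1 stood highest at 8.85, with the other arrays at 6.06 to 7.48, and the actin 3' minus 5' signal was 1.26 ± 0.26 in wild type, 1.15 ± 0.27 in variegated and 1.65 ± 0.27 in stunted plants (mean ± SD, n = 3). In bulk tissue, fewer cells of a type and less RNA per cell cannot be told apart. Gene positions below are only orders of genes in the TAIR10.1 reference table.

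In the limma fit over all 9 arrays, CYP71B6 rose in stunted plants, no other member was called, and no member fell in any comparison. In stunted plants against wild type, 1 of 22 members was called, which is 4.55%, beside 9.66% of all probe sets tested (4.91% that rose and 4.75% that fell). In variegated plants against wild type, 0 of 22 were called, beside 0.444% of all probe sets, and 5 had an unadjusted p under 0.05 (22.7%, beside 11.6% of all). In stunted against variegated plants, 1 of 22 was called, again CYP71B6, beside 1.74% of all probe sets (0.87% in each direction). An unadjusted p under 0.05 was found for 3 members in stunted against wild type (13.6%, beside 22.5% of all) and for 3 in stunted against variegated plants (13.6%, beside 15.4% of all). Counts this small do not set the members apart from the whole series. A call is an adjusted p under 0.05, with the Benjamini-Hochberg adjustment over all probe sets tested.

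CYP71B6, which converts indole-3-acetonitrile to indole-3-carboxylic acid in indole metabolism, had log2 levels of 5.68, 5.76 and 5.67 on the wild-type arrays. On the variegated arrays its levels were 5.89, 5.81 and 5.97, and on the stunted arrays 6.33, 6.44 and 6.20. The 3 groups did not overlap, with wild type lowest and stunted highest. In stunted plants CYP71B6 rose by 0.62 on the log2 scale against wild type (SE 0.08, 1.54-fold, limma adjusted p = 0.00231), from 5.70 ± 0.05 to 6.32 ± 0.12 (mean ± SD, n = 3). The 95% interval of this change ran from 1.35-fold to 1.74-fold. Of all probe sets, 6.72% had a larger absolute change in the same comparison. The call held in each of 9 single-array omissions, with adjusted p from 0.00339 to 0.0107, and in 11 other settings of the fit.

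The variegated level of CYP71B6, 5.89 ± 0.08, differed from wild type by 0.19 (SE 0.08, limma adjusted p = 0.419), which did not pass. Stunted plants were higher than variegated plants by 0.43 (SE 0.08, 1.35-fold, limma adjusted p = 0.035). This last call is fragile. Of the 9 single-array omissions it held in 3, and it was lost when wild-type replicate 2, wild-type replicate 3, stunted replicate 2 or one of the variegated arrays was left out (adjusted p up to 0.133). It was also lost in 4 other settings, among them the fit that takes the actin 3' to 5' signal as covariate.

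**Figure D1:**
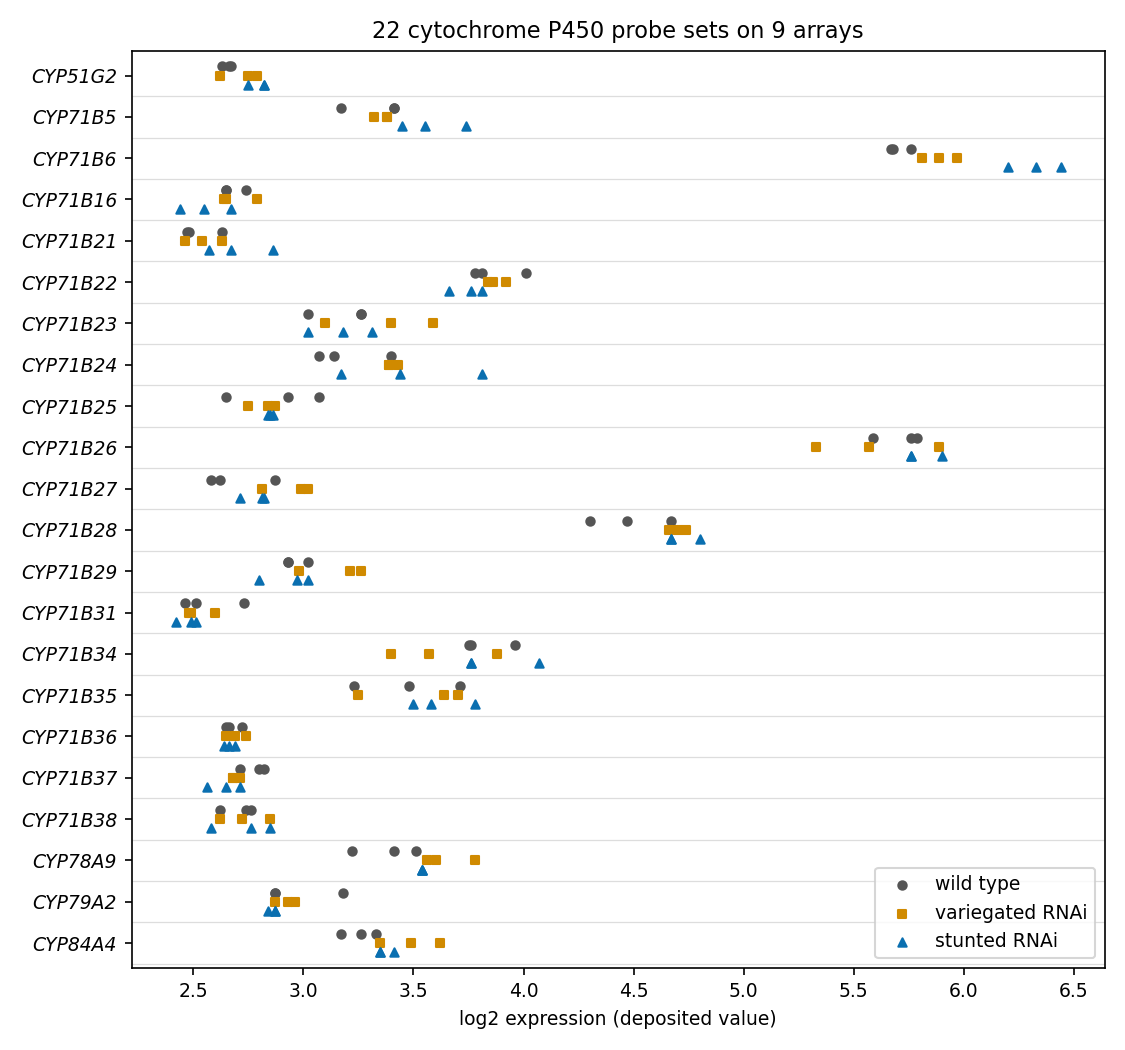
Deposited log2 expression (x axis) of the 22 P450 probe sets (rows) on the 9 arrays, with circles for wild type, squares for variegated and triangles for stunted plants. In CYP71B6 the stunted triangles, at 6.20 to 6.44, lie to the right of all other arrays, while in most rows the 3 symbols intermix.

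The remaining 17 CYP71B members showed no call in any comparison. Their mean level was 3.20 to 3.31 on the wild-type, 3.29 to 3.33 on the variegated and 3.28 to 3.35 on the stunted arrays, ranges that overlap. With CYP71B6 included, the 18 members had a median change of 0.02 in variegated and 0.03 in stunted plants against wild type, where all probe sets tested had a median of 0.01 in both. Of the 18, 13 were above 0 in variegated plants and 10 in stunted plants. Of all 22746 probe sets tested, 12470 and 11728 were above 0 in these comparisons. The mean of the 18 was lowest on wild-type replicate 1, at 3.34, with the other arrays at 3.42 to 3.51.

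In the order of genes, 16 of the 22 members lie in 3 runs. The longest, on chromosome 3, holds 11 CYP71B genes within 24 genes, from CYP71B16 (AT3G26150) to CYP71B37 (AT3G26330), with the next member never more than 7 genes away. None of the 11 was called. Their changes ran from -0.20 to 0.20 in variegated plants (median 0.01) and from -0.14 to 0.27 in stunted plants (median 0), with 7 and 5 above 0. Tandem P450 genes are similar in sequence, so a probe set may also catch transcripts of a neighbour. A probe set that the annotation assigns to more than 1 gene of this kind was left out by the rule.

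Within the run, CYP71B26 had log2 levels of 5.59, 5.76 and 5.79 in wild type, 5.33, 5.57 and 5.89 in variegated and 5.90, 5.76 and 5.76 in stunted plants. Its groups overlapped, with changes of -0.12 (SE 0.13) in variegated and 0.09 (SE 0.13) in stunted plants. The first was 0.02 without variegated replicate 1, and the second -0.04 with the actin signal as a covariate. CYP71B22 had changes of 0.01 and -0.12 (SE 0.08). CYP71B34 was lower on the variegated arrays (3.40, 3.57 and 3.88) than on the stunted arrays (3.76, 3.76 and 4.07) by 0.24, with overlapping arrays and no call (SE 0.13, limma adjusted p = 0.441), and the difference was -0.09 with the actin signal as a covariate. CYP71B24 had the largest uncalled change of all members in stunted plants, 0.27 (SE 0.15, limma adjusted p = 0.356). Its stunted arrays, at 3.17, 3.44 and 3.81, were spread widely, with the wild-type arrays at 3.07, 3.14 and 3.40. This change was 0.10 without stunted replicate 3, 0.42 without stunted replicate 1, and 0.01 with the actin signal as a covariate. At the quiet end, CYP71B36 stayed between 2.64 and 2.74 on all 9 arrays.

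The second run, on chromosome 1, holds CYP71B27, CYP71B28 and CYP71B29, of which the reference table lists CYP71B27 as a transcribed pseudogene. All 3 were above 0 in variegated plants against wild type, by 0.25 (SE 0.10), 0.22 (SE 0.10) and 0.19 (SE 0.09), and none passed (limma adjusted p from 0.338 to 0.49). CYP71B27 measured 2.62, 2.87 and 2.58 in wild type and 2.99, 3.02 and 2.81 in variegated plants, and in each of the 3 genes the arrays of these groups overlapped. In stunted plants CYP71B28 had a change of 0.23 (SE 0.10, limma adjusted p = 0.187), while CYP71B27 and CYP71B29 had 0.09 and -0.03. The change of CYP71B28 was 0.11 with the actin signal as a covariate and 0.14 without wild-type replicate 1. CYP71B29 was lower in stunted than in variegated plants by 0.22 on the log2 scale, again without a call (SE 0.09, limma adjusted p = 0.305).

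Another run pairs CYP71B5 and CYP71B31 on chromosome 3. CYP71B5 measured 3.17, 3.41 and 3.41 in wild type, 3.32, 3.38 and 3.38 in variegated and 3.55, 3.45 and 3.74 in stunted plants. The stunted arrays lay above all others, with a difference of 0.25 from wild type (SE 0.10, limma adjusted p = 0.161) and of 0.22 from variegated plants (SE 0.10, limma adjusted p = 0.318), and neither passed. With the actin signal as a covariate these differences were 0.14 and 0.09. CYP71B31, known to act with CYP76C3 in the oxidation of linalool in flowers, was dim, at 2.42 to 2.73 over the 9 arrays, with a change of -0.09 in stunted plants (SE 0.08, limma adjusted p = 0.609). The last CYP71B member, CYP71B38, lies alone on chromosome 3 and had changes of 0.02 in each RNAi group against wild type (SE 0.09).

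The 4 members of other families have known or related functions, and none was called. CYP78A9, of a family that promotes organ, fruit and seed growth, measured 3.22, 3.41 and 3.51 in wild type, 3.78, 3.60 and 3.56 in variegated plants, and 3.54 on each stunted array. Both RNAi groups lay above all wild-type arrays. The difference was 0.27 in variegated plants (SE 0.09, limma adjusted p = 0.287), the largest uncalled change in that comparison, and 0.16 in stunted plants (SE 0.09, limma adjusted p = 0.364). Without wild-type replicate 1, its lowest array, these differences were 0.18 and 0.08. CYP84A4, a relative of the lignin enzyme ferulate 5-hydroxylase that acts in the synthesis of arabidopyrones, measured 3.17, 3.33 and 3.26 in wild type and 3.49, 3.62 and 3.35 in variegated plants. That is a separation of the groups by 0.23 that did not pass (SE 0.08, limma adjusted p = 0.316).

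CYP79A2, which converts phenylalanine to its oxime for benzyl glucosinolate, had changes of -0.05 in variegated and -0.11 in stunted plants (SE 0.09, limma adjusted p = 0.883 and 0.545). Its level was 3.18 on wild-type replicate 1 and 2.84 to 2.97 on the other 8 arrays. Without that array its variegated change turned from -0.05 to 0.05, and its stunted change went from -0.11 to -0.01. CYP51G2, which the reference table lists as a transcribed pseudogene, is related to the sterol 14-demethylase CYP51G1. It measured 2.67, 2.63 and 2.66 in wild type and 2.82, 2.82 and 2.75 in stunted plants, a difference of 0.14 (SE 0.07, limma adjusted p = 0.259).

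**Figure D2:**
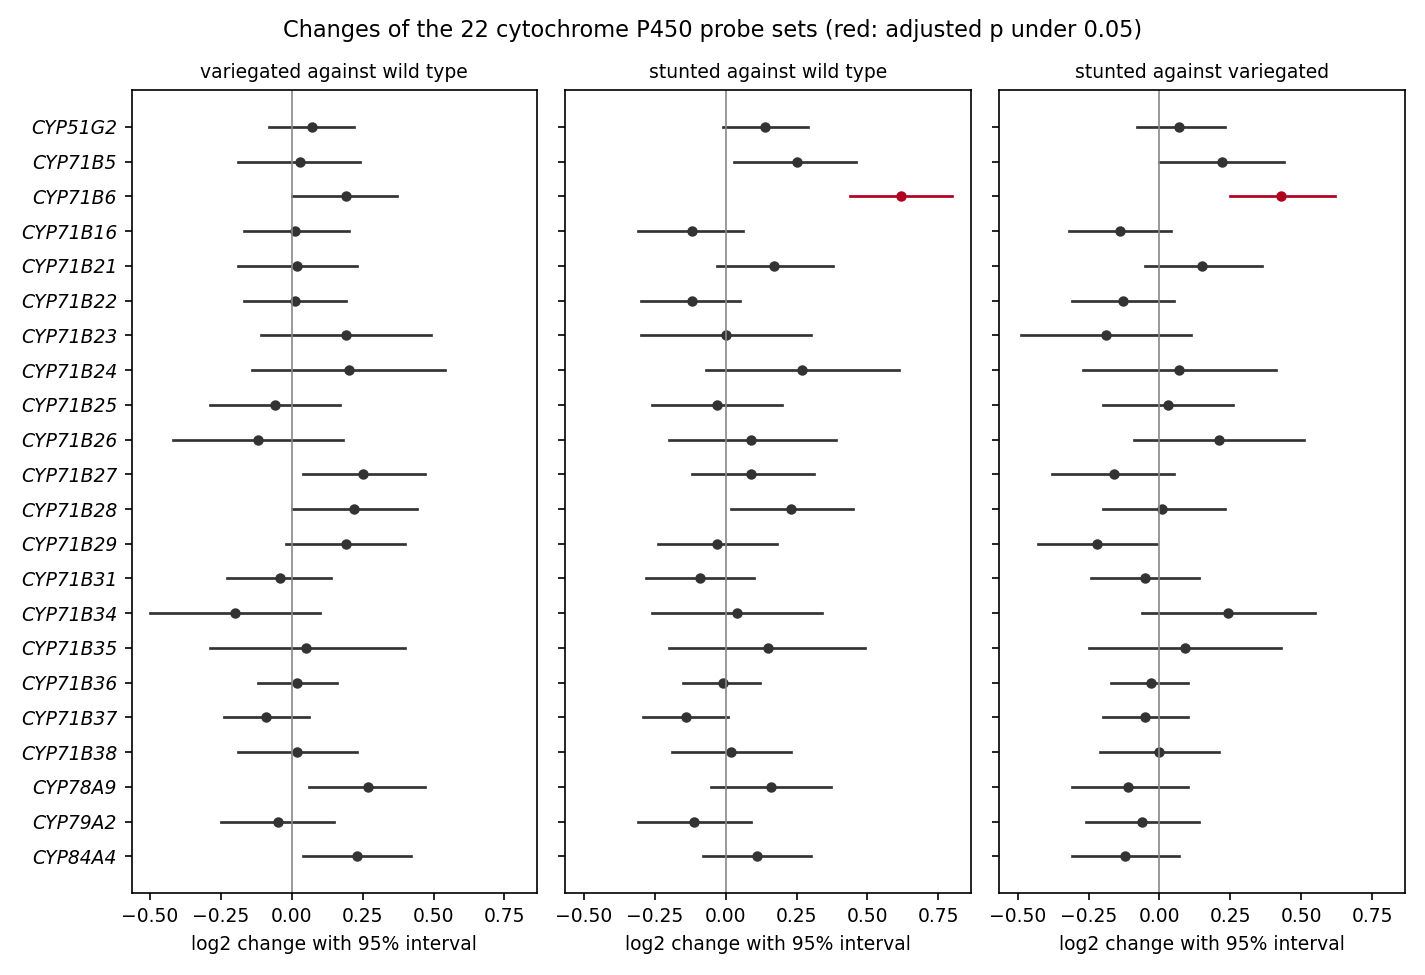
Log2 change (dot) with its 95% interval (bar) for each of the 22 P450 probe sets in the 3 comparisons, with red for an adjusted p under 0.05. All intervals lie between -0.50 and 0.80, and CYP71B6 in the 2 comparisons of stunted plants is the red entry.

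Separation of arrays was about as frequent among the members as in the whole series. The arrays of the 2 groups did not overlap in 4 of 22 members in variegated against wild type (18.2%, beside 16.8% of all probe sets), in 6 in stunted against wild type (27.3%, beside 23.1%) and in 4 in stunted against variegated plants (18.2%, beside 17.7%). The members separated from wild type in both RNAi groups were CYP71B6, CYP71B37, CYP78A9 and CYP84A4. These comparisons share the wild-type arrays. CYP71B37 was lower in both, by 0.09 and 0.14 on the log2 scale (SE 0.07), without a call.

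The intervals bound the size of changes that were not called. In stunted plants, the 95% intervals of the 21 members other than CYP71B6 ran from -0.31 to 0.61, and in variegated plants from -0.50 to 0.54. For all 22 members the interval lay within 1 on the log2 scale, a 2-fold change, in each comparison. It lay within 0.5 for 20 members in variegated and 20 in stunted plants against wild type, and for 19 in stunted against variegated plants. The intervals are not adjusted over members.

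Most members were dim, which limits what these bounds mean for transcript amounts, since changes near the floor of the scale can be compressed. Of the 22, 14 had a mean under 3.42, the median over all probe sets, and 10 lay in the dimmest of 3 equal classes of all probe sets. In that class 0 of 7582 probe sets were called in variegated plants (limma, 101 calls over all probe sets) and 0.29% in stunted plants. In the middle class, with 9 members, these shares were 0.369% and 6.71%. In the brightest class, with 3 members (CYP71B6, CYP71B26 and CYP71B28), they were 0.963% and 22%. Further, 13 of the 22 members carried exactly the same deposited value on 2 or more arrays, as did 52.4% of all probe sets. CYP79A2 had 1 value on 5 arrays and CYP78A9 1 value on all 3 stunted arrays, where its SD is therefore 0. CYP71B6 had no repeated value.

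Genes that work beside P450s were taken from lists of linked pathways. Of 150 listed genes, 14 in 6 of 9 lists were measured, and none encoded an electron donor of the P450s. Measured means here that the annotation table pairs a probe set with that gene alone. Listed genes without such a probe set were not analysed, so nothing is known here of their levels. In stunted plants 1 of the 14 rose and 3 fell, where 4.91% of all probe sets rose and 4.75% fell, and none passed in variegated against wild-type or in stunted against variegated plants (limma). Of 13 role lists for the P450s themselves, 5 held a measured gene, 6 of 104 listed genes in all, each described above.

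In the glucosinolate pathway, which makes sulfur-rich defence compounds and uses P450s at its oxime steps, 2 of 5 measured genes fell in stunted plants and none rose. Of the 14 linked genes 8, and of these 5 genes 3, lie in the brightest of the 3 classes, where 22% of all probe sets were called in this comparison. GSTU20, a glutathione transferase assigned to this pathway, measured 10.60, 10.83 and 10.95 in wild type and 10.07, 9.86 and 9.32 in stunted plants, without overlap. It fell by 1.05 on the log2 scale (SE 0.19, limma adjusted p = 0.00935). BCAT4, the aminotransferase that starts methionine chain elongation, fell by 0.68 (SE 0.16, limma adjusted p = 0.0269), from 10.01 ± 0.04 to 9.32 ± 0.31 (n = 3). UGT74B1, the glucosyltransferase of the core pathway, had a change of -0.51 that did not pass (SE 0.18, limma adjusted p = 0.118). In variegated plants the changes of GSTU20, BCAT4 and UGT74B1 were -0.48, -0.44 and -0.56, also without a call. AOP1 and AOP3 had changes of -0.05 and -0.03 in stunted plants. BCAT4 held its call in 4 of the 9 single-array omissions and lost it when a wild-type array or stunted replicate 2 or stunted replicate 3 was dropped (adjusted p up to 0.0788). With the actin signal as a covariate its change was -0.43 (adjusted p = 0.131). GSTU20 held its call in all 9 omissions, and had a change of -0.85 with the actin signal as a covariate (adjusted p = 0.0548).

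Of the other lists, JMT, which methylates jasmonate, fell by 1.33 in stunted plants (SE 0.25, limma adjusted p = 0.0109; adjusted p up to 0.0753 over other settings). In variegated plants its change was -1.27 without a call (SE 0.25, limma adjusted p = 0.0724), and stunted minus variegated was -0.06. OPCL1 of jasmonate synthesis had changes of -0.30 in variegated and -0.37 in stunted plants (SE 0.35). LYC, a lycopene cyclase of carotenoid synthesis, rose by 0.50 (SE 0.13, limma adjusted p = 0.037), a call that held in 2 of 9 single-array omissions (adjusted p up to 0.131) and in 7 of 11 other settings. With the actin signal as a covariate its change was 0.33 (adjusted p = 0.199). DFR of anthocyanin synthesis measured 6.68, 6.71 and 6.99 in wild type, 5.87, 6.10 and 5.14 in variegated and 6.51, 6.84 and 5.62 in stunted plants. The variegated arrays lay below the wild-type arrays, with a change of -1.09 that did not pass (SE 0.32, limma adjusted p = 0.199), and the stunted change was -0.46. HCT of lignin synthesis had changes of 0.19 in variegated and 0.26 in stunted plants (SE 0.11). The gibberellin receptor gene GID1A had changes of -0.26 and -0.25 (SE 0.17), GID1B of -0.10 and 0.14 (SE 0.11), and WSD1 of wax synthesis of 0.03 and -0.18 (SE 0.11), without a call.

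Of 12 measured tissue markers, PYK10, a beta-glucosidase known from roots and endoplasmic reticulum bodies, was, like CYP71B6, higher in stunted plants. It measured 4.45, 4.09 and 4.01 in wild type, 3.78, 3.95 and 4.09 in variegated and 5.51, 5.55 and 5.98 in stunted plants, and rose in stunted plants by 1.50 (SE 0.15, limma adjusted p = 0.000875). In variegated plants its change was -0.24 (SE 0.15), where that of CYP71B6 was 0.19, both without a call. The other root markers did not pass, with changes of 0.01 for EXPA7 and -0.14 for EXPA18 in stunted plants, both at 2.63 to 3.24 on all arrays. The mean over the 3 root markers was 3.21 to 3.38 in wild type, 3.26 to 3.47 in variegated and 3.69 to 3.86 in stunted plants. This higher mean reflects PYK10, and the median change of the 3 in stunted plants was 0.01. The part of these markers in the rise of CYP71B6 was not tested. With the actin signal as a covariate, the change of CYP71B6 in stunted plants was 0.64 against wild type (limma adjusted p = 0.0111). Against variegated plants it was 0.47 in that fit, without a call (limma adjusted p = 0.143). The actin signal was itself highest on average in stunted plants, with arrays that overlapped those of both other groups. The exact permutation p was 0.2 against wild type and 0.2 against variegated plants, in a test that cannot go below 0.1.

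**Figure D3:**
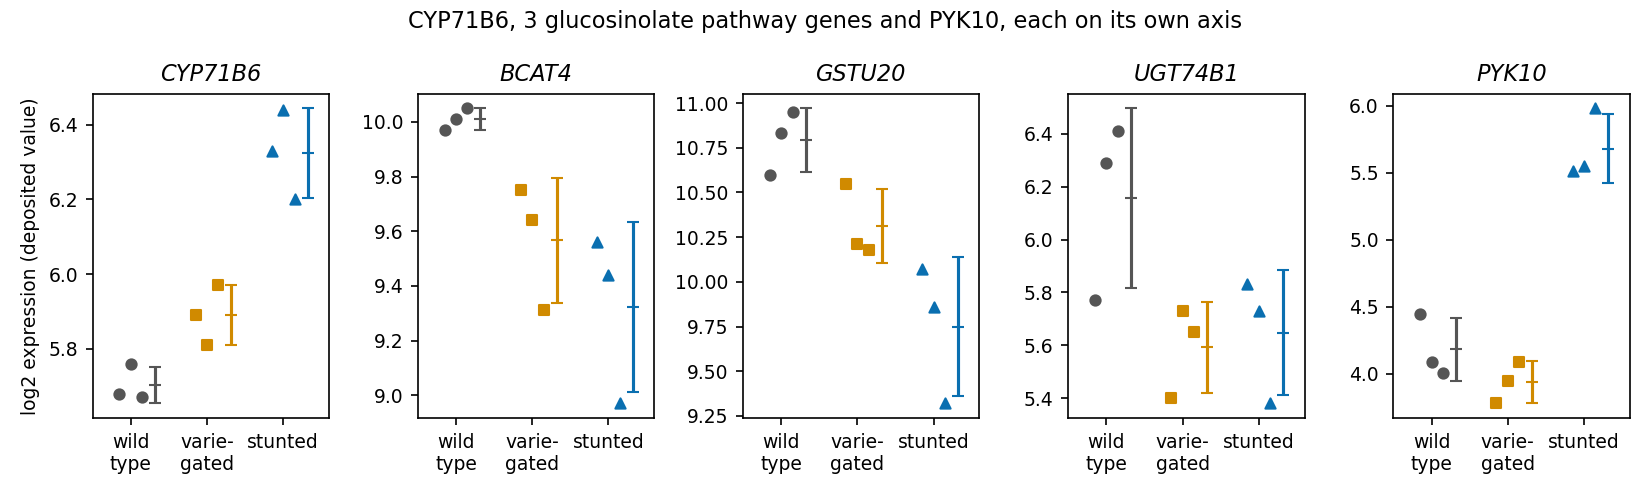
Deposited log2 expression (y axis, a scale of its own in each panel) of CYP71B6, the glucosinolate genes BCAT4, GSTU20 and UGT74B1, and PYK10, with a point for each array and the mean ± SD (n = 3) beside each group. CYP71B6 and PYK10 are highest on the stunted arrays, where GSTU20 has its lowest values. The other measured glucosinolate genes, AOP1 and AOP3, are not shown and had changes of -0.05 and -0.03 in stunted plants.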

How the data were processed

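Levels were measured on 9 one-colour Affymetrix arrays, 3 per group, grouped by the sample titles. Per the submitters' processing notes the authors used RMA and the affy package, without versions, and the deposited values are log2 expression levels per probe set. How the background step and any centring were set is not known. No scanner files were used here, so another background correction could not be tried. Of 22810 probe sets, 64 controls were set aside. Group means were fitted with limma 3.58.1 in R 4.3.3, with empirical Bayes moderation, Benjamini-Hochberg adjustment within each comparison and two-sided tests, and were tested on simulated data. Control signals were compared with an exact permutation test (3 against 3, smallest p 0.1).

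Gene names came from the platform's old annotation table, which paired 13513 probe sets (59.4%) with a single gene and 503 with more than one, and left 8730 unlisted. All 22 members matched the TAIR10.1 table, used for names, gene types and gene order. A run joins members at most 10 genes apart. A listed gene with several probe sets took the brightest.

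The members and gene lists were chosen with earlier results of these data known, so no list was tested as a set. Named were all called members, the 3 largest uncalled changes per comparison, the 5 members with the highest means, every member with a listed role, and linked genes that were called or had the smallest p. The number of arrays limits the precision. Alternatives covered normalization, centring, dim probe sets, moderation, array weights, covariates, the replicate block and single-array omissions.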

Additional observations from a re-analysis of the deposited data

Results flagged for a closer look

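CYP71B6 was the 1 member whose change against wild type differed between the RNAi phenotypes when that difference was tested. Its change in stunted plants exceeded that in variegated plants by 0.43 on the log2 scale (SE 0.08, limma adjusted p = 0.035), with all 3 stunted arrays above all 3 variegated arrays. Over the single-array omissions the adjusted p ran from 0.0348 to 0.133.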

How the results depend on the processing

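Over 11 other settings and 9 single-array omissions, the number of members called remained 0 in variegated and 1 in stunted plants against wild type. In stunted against variegated plants it was 0 to 1 over the omissions. It was 0 with the intensity trend, with only the 2 groups compared, with actin 3' minus 5' as covariate and with the unmoderated test, and the cause was not tested. The change of CYP71B6 in stunted plants against wild type ran from 0.58 to 0.64 over the other settings (adjusted p 0.00164 to 0.018), and against variegated plants from 0.43 to 0.47 (0.0184 to 0.143). Of 1253 values of uncalled members under all alternatives, 0 were called and 26 moved by more than the mean SD within groups. Same-numbered arrays of different groups correlated at 0 to 0.28 in their deviations from group means (9 pairs), and differently numbered ones at -0.28 to 0.1 (18 pairs). Arrays numbered 2 correlated at 0, 0.01 and 0.11, those numbered 1 at 0.09 to 0.25 and those numbered 3 at 0.23 to 0.28. Arrays numbered 1 against those numbered 3 ran from -0.28 to -0.07, so some structure follows the numbers. The labels state no pairing, and the main fit has none. Within each group the actin 3' minus 5' signal was highest on replicate 3. It was 1.56 there in wild type (other arrays 1.11 and 1.11), 1.45 in variegated (0.95 and 1.05) and 1.95 in stunted plants (1.42 and 1.59). What the numbers stand for was not tested. With the replicate number as a block, 0, 1 and 1 members were called in the 3 comparisons, with 191, 2889 and 940 probe sets called in all, against 101, 2197 and 396 without it. The median over all probe sets moved by less than 0.1 under the other scalings. Signal over background limits the dim members most.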
